A study of Mus musculus with 3 samples.

Results

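The genes described here are *Slc2a1*, which encodes the glucose transporter GLUT1, and the glycolytic enzyme genes *Hk1*, *Hk2*, *Gpi1*, *Pfkl*, *Aldoa*, *Tpi1*, *Pgk1*, *Eno1* and *Ldha*. They were taken from the expression table by symbol, and all 10 were found among its 23421 genes. RNA was sequenced from E6.5 mouse embryos in 3 libraries, labelled WT, tw18/+ and tw18/tw18, and the labels give the strain as 129/SvEv and the parents as tw18/+ mice. The tw18 chromosome is a t haplotype with a deletion on chromosome 17 that removes *Ppp2r1a*, the gene of a scaffold subunit of the phosphatase PP2A. WT embryos carried no copy of the deletion, tw18/+ embryos carried it on a single chromosome 17, and tw18/tw18 embryos carried it on both, so the genotypes differ in every gene of the deletion and not in *Ppp2r1a* alone. The labels name the tissue as epiblast, while the study's methods describe the embryo proper with its covering visceral endoderm, and the number of embryos per library is not given in the sources used here. There was 1 library per genotype, so no difference below has a replicate check, and none was tested.

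Glycolysis splits glucose into pyruvate, with a net gain of ATP and NADH, and lactate dehydrogenase then uses NADH to turn pyruvate into lactate. The pathway begins with steps that spend ATP, from hexokinase to phosphofructokinase, and ends with steps that return it, which run from the products of aldolase to pyruvate. Pluripotent cells and the early post-implantation epiblast are known to use glycolysis heavily even where oxygen is available.

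The values are FPKM, in which fragment numbers are scaled by the length of the transcript and the size of the library. They can be compared between genes as levels per length, and each is relative to the scaling of its own library, whose method is not given in the sources used here. *Ppp2r1a* stood at an FPKM of 146 in WT, 81.8 in tw18/+ and 12.8 in tw18/tw18, the order the labels imply. The library labelled tw18/tw18 kept 8.72% of the WT level, an estimated 586 fragments, although a deletion on both chromosomes leaves no copy of the gene, and the source of this signal was not tested. The spacing of low values gave an FPKM of 0.0727, 0.0519 and 0.0525 for a single fragment on 1 kb of transcript in the same order. If the values were scaled by library size alone, tw18/+ and tw18/tw18 were sequenced 1.40 and 1.38 times as deeply as WT. Abundant genes as a class were lower in tw18/tw18: over 719 genes that reached an FPKM of 100 in tw18/tw18 or WT the median log2 ratio was -0.34, against -0.01 over the 12917 genes that reached an FPKM of 1. Marker genes of cell types also differed between the libraries. Of all genes, 50.4% were lower in tw18/tw18 than in WT by any amount and 49.6% were higher. Of the 719 abundant genes, 78.9% were lower. All 10 epiblast markers were lower in tw18/tw18 than in WT, with summed FPKM of 2298 in WT, 2471 in tw18/+ and 1196 in tw18/tw18, and 9 of 10 visceral endoderm markers were higher, with sums of 1001, 989.7 and 1339. Primitive streak markers summed to 172, 119.7 and 59.1, and 2 of the 7 were listed at 0 in tw18/tw18. Extra-embryonic ectoderm markers summed to 16.8, 30.6 and 33.9, and stroma markers, all 7 higher, to 76.9, 101 and 474. Decidua markers summed to 1719, 281 and 779.9, with 7 of 9 higher and 2 lower in tw18/tw18 than in WT. Endothelial markers summed to 55.2, 43.9 and 112, erythroid markers to 52.5, 56.3 and 177, and immune markers to 22.7, 11.5 and 31.9. Trophoblast markers summed to 119, 64.4 and 204, where 1 abundant gene carried the sum. Of the 3 trophoblast markers tested, 2 were lower in tw18/tw18 than in WT by a log2 ratio of 1 or more, beside 6.94% of all genes. Of the 4 erythroid markers tested in tw18/tw18 against WT, 3 were higher and 1 lower by a log2 ratio of at least 1. Their finite log2 ratios ran from -12.9 to 12.6, so the erythroid sum joins genes that went opposite ways. *Slc4a1* of the erythroid list and *Prl3b1* and *Ctsq* of the trophoblast list were listed at 0 in all libraries. The abundant trophoblast gene was *Prl3d1*, at 113 in WT, 61.5 in tw18/+ and 202 in tw18/tw18. In bulk RNA, fewer cells of a type and less RNA per cell cannot be told apart, and the part of these cell types in the results below was not tested.

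None of the 10 genes lies on chromosome 17, the chromosome of the deletion. In GRCm38 with the GENCODE M21 annotation, *Ldha* occupies chr7:46841475-46855627 on the plus strand, *Aldoa* chr7:126795234-126800751 and *Gpi1* chr7:34201330-34230336, both on the minus strand. *Slc2a1* lies at chr4:119108711-119137983 and *Eno1* at chr4:150236721-150248879, both on the plus strand. *Hk2* lies at chr6:82725025-82774454 and *Tpi1* at chr6:124810586-124814296, both on the minus strand. *Hk1* lies at chr10:62268855-62379908 and *Pfkl* at chr10:77986947-78010083, both on the minus strand, and *Pgk1* is X-linked, at chrX:106187100-106203699 on the plus strand.

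The promoters of glycolytic genes are known targets of hypoxia-inducible factor, HIF, whose response element has the core ACGTG or GCGTG. The 250 bases before a RefSeq start site are shown for 4 members. They are the transporter *Slc2a1*, *Gpi1*, the gene nearest to an equal level in WT and tw18/tw18, and *Pgk1* and *Ldha*, the members with the lowest ratios. Capitals mark ACGTG or GCGTG read on either strand. The windows in GRCm38.p6 are chr4:119108495-119108744 (plus strand), chr7:34230337-34230586 (minus), chrX:106186850-106187099 (plus) and chr7:46846832-46847081 (plus).
Slc2a1: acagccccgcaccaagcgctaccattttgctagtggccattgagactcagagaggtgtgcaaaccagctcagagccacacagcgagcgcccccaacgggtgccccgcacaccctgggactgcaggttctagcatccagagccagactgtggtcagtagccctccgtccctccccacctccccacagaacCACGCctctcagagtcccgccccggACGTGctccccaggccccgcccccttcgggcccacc
Gpi1: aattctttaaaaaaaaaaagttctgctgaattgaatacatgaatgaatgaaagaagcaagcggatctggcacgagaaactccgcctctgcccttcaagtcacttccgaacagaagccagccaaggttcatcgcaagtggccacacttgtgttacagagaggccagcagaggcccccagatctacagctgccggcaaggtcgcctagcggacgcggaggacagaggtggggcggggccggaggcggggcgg
Pgk1: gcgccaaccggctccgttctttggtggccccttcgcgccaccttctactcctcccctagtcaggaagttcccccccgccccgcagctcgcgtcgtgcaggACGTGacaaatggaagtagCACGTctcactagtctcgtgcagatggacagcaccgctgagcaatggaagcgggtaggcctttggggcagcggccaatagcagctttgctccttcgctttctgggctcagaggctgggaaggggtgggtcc
Ldha: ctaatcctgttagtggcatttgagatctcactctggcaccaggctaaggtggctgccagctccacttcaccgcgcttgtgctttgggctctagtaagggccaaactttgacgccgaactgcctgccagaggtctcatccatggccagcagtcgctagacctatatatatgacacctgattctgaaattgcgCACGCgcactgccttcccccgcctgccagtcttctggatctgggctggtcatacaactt
The windows of *Slc2a1* and *Pgk1* held 2 matches each, the *Ldha* window shown held 1 and that of *Gpi1* none. *Ldha* has 2 annotated starts, both with a match, and the window shown lies inside the span of the gene given above. Counting every annotated start, 8 of 10 members had a match, *Gpi1* and *Tpi1* being the exceptions, beside 48.2% of the 16441 genes of the table with a window and 38.6% of all 32851 windows. The E-box CACGTG, which contains ACGTG and is bound by MYC and related factors, was present at a start of 1 member and in 7.85% of genes of the table. It was in none of the windows shown. A match is a description of the letters, and a window without a match says only that these letters are not in it.

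The order of the levels in WT ran from *Ldha* through *Aldoa*, *Pgk1*, *Eno1*, *Tpi1*, *Slc2a1*, *Gpi1*, *Pfkl* and *Hk2* to *Hk1*. *Ldha* ranked 18 among all genes in WT and in tw18/+ and 41 in tw18/tw18. *Hk1*, at the other end, ranked 8457 in WT. The neighbours *Pgk1* and *Eno1* could not be separated by counting error in WT, where their 95% counting intervals were 672 to 693 and 660 to 680. In tw18/tw18 the same intervals were 365 to 378 for *Pgk1* and 476 to 489 for *Eno1*, and *Eno1* stood above *Pgk1*. These intervals rest on fragment numbers estimated from the FPKM and the transcript length, from 261 for *Hk1* in WT to 64638 for *Ldha* in tw18/+. Only counting error is included: PCR copies of a molecule are counted as separate fragments, and the spread between embryos is not part of these intervals.

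**Figure D1:**
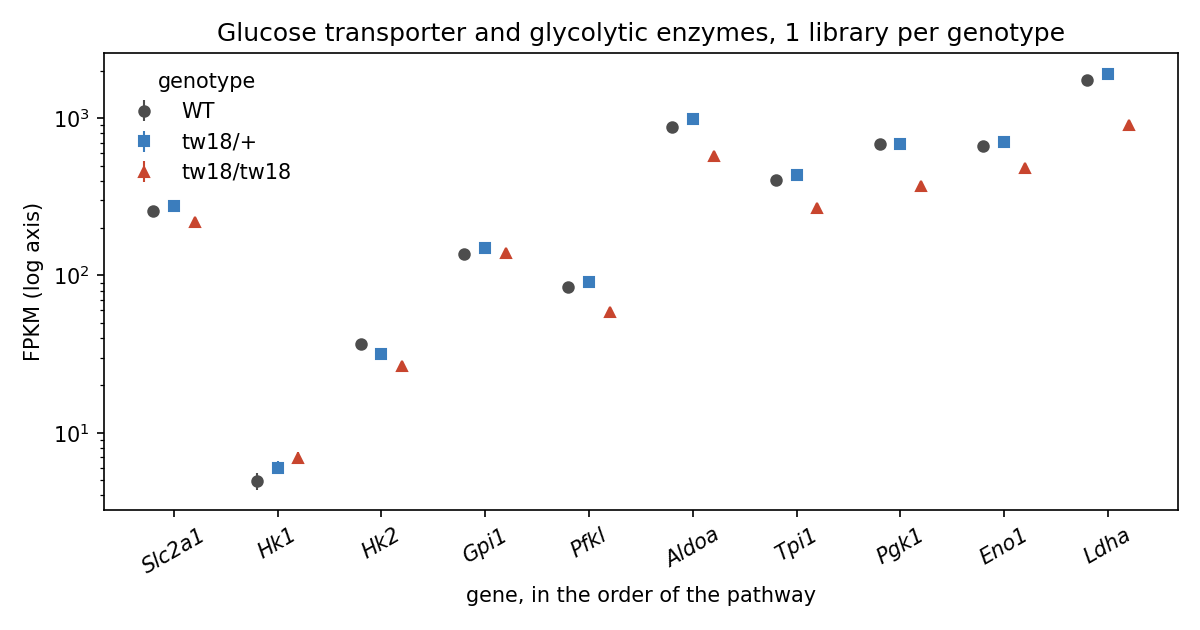
FPKM on a log axis of *Slc2a1* and the 9 enzyme genes in the order of the pathway, 1 point per library, with bars for the 95% counting interval, most of them smaller than the symbol. From *Aldoa* to *Ldha* the tw18/tw18 triangle lies below the other points, while *Gpi1* lies at 137, 150.2 and 139 and *Hk1* is highest in tw18/tw18.

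In tw18/tw18 compared with WT, the genes of the later part of the pathway were lower, and those of the first part differed in direction. The 5 members from *Aldoa* to *Ldha* summed to an FPKM of 4393 in WT and 2606 in tw18/tw18, 59.3% of WT, with log2 ratios between -0.95 and -0.47. The 5 members from *Slc2a1* to *Pfkl* summed to 520.6 and 448, 86.1% of WT, with log2 ratios between -0.52 and 0.49. *Pfkl* (-0.52) and *Hk2* (-0.46) of the first part were about as low as *Eno1* (-0.47) of the later part. Above WT were *Hk1* (0.49), the least abundant member, and *Gpi1* (0.02, counting interval -0.03 to 0.07). The later genes are also the more abundant members, and the median over abundant genes was -0.34. The part of expression level in this contrast was not tested. Against tw18/+ the sums were 55.3% and 81.1%, and those comparisons share the tw18/tw18 library with the ones to WT.

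Uptake and trapping of glucose come first. GLUT1, the product of *Slc2a1*, carries glucose across the cell membrane down its gradient. *Slc2a1* had an FPKM of 258 in WT, 274 in tw18/+ and 217 in tw18/tw18. Its tw18/tw18 level was 84.2% of WT, a log2 ratio of -0.25 with a counting interval of -0.28 to -0.21. This lies nearer to 0 than the median of -0.34 over abundant genes. Hexokinase phosphorylates glucose and so keeps it in the cell, and it is encoded by several genes. *Hk2*, the form induced in proliferating and insulin-responsive cells, had 36.8, 31.7 and 26.7, and its tw18/tw18 level was 72.6% of WT. Between tw18/tw18 and tw18/+ the log2 ratio of *Hk2* was -0.25 as deposited and 0.0008 with the libraries rescaled to equal FPKM sums. *Hk1*, the widely expressed form, ran the other way at 4.93, 6.01 and 6.93. The log2 ratio of *Hk1* was 0.49 in tw18/tw18 against WT (counting interval 0.28 to 0.71) and 0.29 in tw18/+ against WT (0.07 to 0.51). As deposited, *Hk1* was the only member with a higher value in tw18/tw18 than in both other libraries, and also the one with the fewest fragments. With equal FPKM sums *Gpi1* was also higher in tw18/tw18, by 0.23 against WT and 0.14 against tw18/+ on the log2 scale.

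The middle steps isomerise glucose 6-phosphate and commit it to glycolysis. *Gpi1*, glucose-6-phosphate isomerase, had 137 in WT, 150.2 in tw18/+ and 139 in tw18/tw18. Its log2 ratio of tw18/tw18 to WT was 0.02, with a counting interval of -0.03 to 0.07 that includes 0. *Pfkl*, the liver-type subunit of phosphofructokinase, the main control point of the pathway, had 83.9, 90.3 and 58.4. Here tw18/tw18 was at 69.6% of WT, and the isomerase and the kinase that follow each other in the pathway therefore differed in their ratios.

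The genes of the later steps were all lower in tw18/tw18 than in both other libraries. *Aldoa*, the aldolase that splits fructose 1,6-bisphosphate, had an FPKM of 877 in WT, 985 in tw18/+ and 575 in tw18/tw18. *Tpi1*, triosephosphate isomerase, which interconverts the products of aldolase, had 405, 436 and 269. The log2 ratios of tw18/tw18 to WT were close for this pair of genes, at -0.61 for *Aldoa* and -0.59 for *Tpi1*. *Pgk1*, the kinase of the first ATP-yielding step, had 682, 688 and 372, so that WT and tw18/+ were nearly equal and tw18/tw18 was at 54.5% of WT. Its log2 ratio was -0.88, with a counting interval of -0.91 to -0.84. *Eno1*, the enolase that makes phosphoenolpyruvate, had 670.0, 702 and 482, and its log2 ratio of -0.47 was the nearest to 0 among the 5. *Ldha*, the lactate dehydrogenase subunit associated with lactate production, had 1759 in WT, 1899.6 in tw18/+ and 908 in tw18/tw18. *Ldha* in tw18/tw18 was at 51.6% of WT and 47.8% of tw18/+, with log2 ratios of -0.95 (-0.98 to -0.93) and -1.07 (-1.09 to -1.05).

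The steps left out of the chosen genes were read as well. *Gapdh*, glyceraldehyde-3-phosphate dehydrogenase, had 2527, 2849 and 1769, with a log2 ratio of tw18/tw18 to WT of -0.51. *Pgam1*, phosphoglycerate mutase, had 707, 729 and 450.0, with a ratio of -0.65. *Pkm*, pyruvate kinase, had 993, 994 and 672, with a ratio of -0.56. With these, the 8 genes from *Aldoa* to *Ldha* had log2 ratios between -0.95 and -0.47, a median of -0.60, and a summed FPKM in tw18/tw18 at 63.8% of WT. Of the list of 6 other glycolytic steps, which also holds *Bpgm*, *Adpgk* and *Galm*, 5 were lower by any amount and 1 higher. Of all genes 50.4% and 49.6% were. None of the 6 passed a log2 ratio of 1 in either direction, beside 15.1% of all genes higher and 6.94% lower. The median was -0.54.

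**Figure D2:**
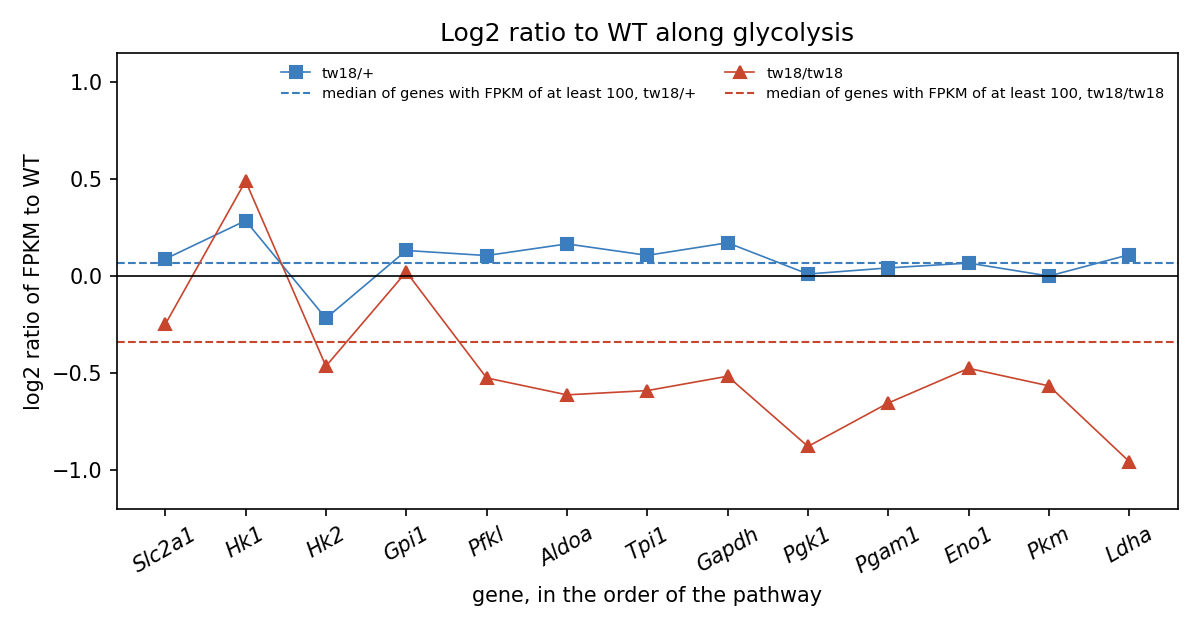
Log2 ratio of FPKM to WT for tw18/+ (squares) and tw18/tw18 (triangles) in the order of the pathway, with *Gapdh*, *Pgam1* and *Pkm* added, and dashed lines for the median of all genes that reached an FPKM of 100 in a library of the pair. The triangles from *Pfkl* to *Ldha* all lie below the dashed median of -0.34, and the squares lie near 0 except for *Hk1* and *Hk2*.

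These ratios were read against all genes. In tw18/tw18 against WT, 0 of 10 members had a log2 ratio of -1 or below, as 6.94% of the 12917 genes did, and 0 of 10 had a log2 ratio of 1 or above, as 15.1% did. *Aldoa*, *Tpi1*, *Pgk1* and *Ldha* were lower by at least 1.5 times, 4 of 10, beside 16.0% of all genes. Where an FPKM of 100 was required, it was 4 of 7 members beside 17.1% of genes. *Tpi1* and *Aldoa* were close to this limit, and under each of the 3 rescalings tried only *Pgk1* and *Ldha* passed it. With equal FPKM sums that was 2 of 10 members beside 10.3% of all genes, and 2 of 7 beside 5.42% of abundant genes. By any amount, 8 of 10 members were lower beside 50.4% of all genes, but among abundant genes 6 of 7 were lower beside 78.9%, so that the direction alone was close to that of genes of their level. The median log2 ratio over the 7 abundant members was -0.59 and that over the 719 abundant genes was -0.34. Rescaling the libraries to equal FPKM sums moved every log2 ratio of tw18/tw18 to WT up by 0.21. Only the 8 lower members could change sign under that scaling, and none did.

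**Figure D3:**
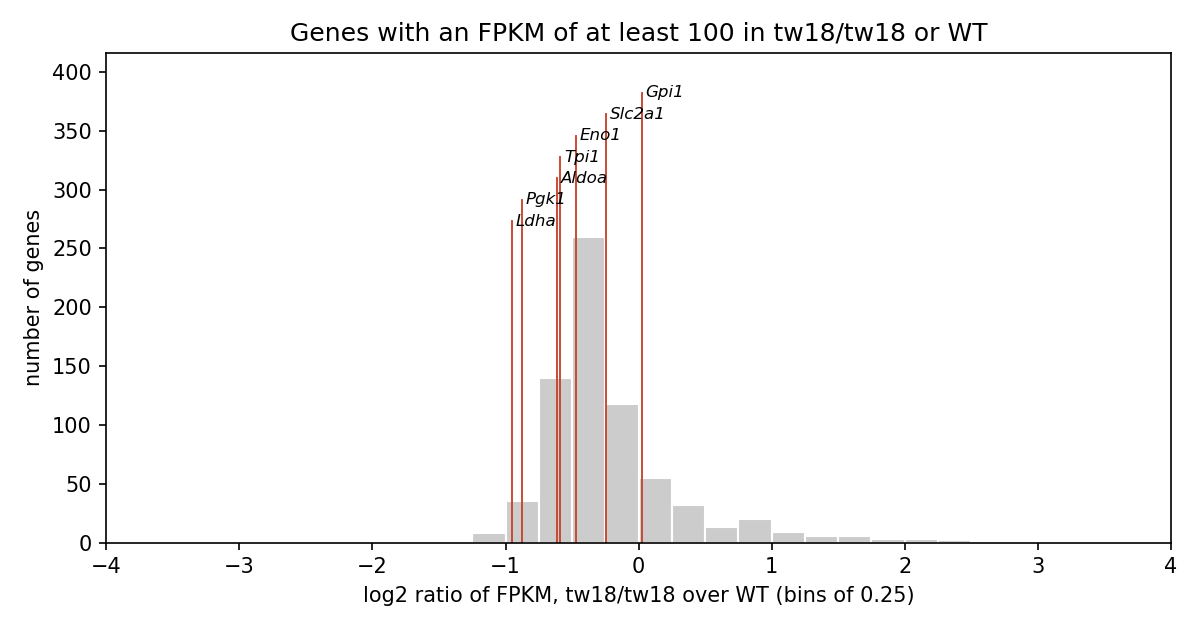
Number of genes per bin of log2 ratio of FPKM, tw18/tw18 over WT, for the 719 genes that reached an FPKM of 100 in either library, with vertical lines at the 7 members of that level and ratios beyond 4 in either direction placed in the end bins. *Ldha* (-0.95) and *Pgk1* (-0.88) lie on the left shoulder of the distribution, *Eno1* (-0.47) and *Slc2a1* (-0.25) inside its bulk, and *Gpi1* (0.02) to the right of it.

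In tw18/+ compared with WT the members' ratios were small. The log2 ratios ran from -0.22 for *Hk2* to 0.29 for *Hk1*, with a median of 0.11, and those of *Pgk1* (0.01) and *Eno1* (0.07) were nearest to 0. None of the 10 members passed a log2 ratio of 1 in either direction, beside 9.72% of the 12426 genes tested. Being higher by any amount, as 9 of 10 members were, applied to 50.5% of all genes. For abundant genes the figures were 7 of 7 members and 70.3%, so the direction again resembled that of other genes of this level.

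The members in tw18/tw18 against tw18/+ had a median log2 ratio of -0.59, and *Ldha* was the 1 member of 10 lower by a log2 ratio of at least 1, beside 5.65% of genes. All 7 abundant members were lower by any amount, beside 81.1% of abundant genes. The call for *Ldha* is close to the threshold, and with the libraries rescaled to equal sums its log2 ratio was -0.82 and 0 members passed.

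The other genes that encode the same steps showed how far a member stood for its enzyme. *Slc2a3*, the gene of the high-affinity transporter GLUT3, had an FPKM of 244 in WT, 227 in tw18/+ and 337 in tw18/tw18. Its level per length was close to that of *Slc2a1* in WT, and the ratio of *Slc2a1* to *Slc2a3* was 1.06 in WT, 1.21 in tw18/+ and 0.645 in tw18/tw18. *Slc2a1* thus made up 49.9%, 53.5% and 37.4% of the summed FPKM of the glucose transporters listed. *Slc2a12*, the gene of the transporter GLUT12, was at 3.73, 4.60 and 21.9, a log2 ratio of tw18/tw18 to WT of 2.55. *Slc2a2*, the transporter of liver and yolk sac endoderm, was highest in WT at 5.24, with 1.61 and 1.34 in the others, and *Slc2a8* had 5.35, 4.46 and 3.25. Of the 12 other transporters, 4 reached an FPKM of 1 in tw18/tw18 or WT. By a log2 ratio of at least 1, 1 was higher and 1 lower, beside 15.1% and 6.94% of all genes.

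For hexokinase the shares of the genes differed more than their sum. *Hkdc1*, a hexokinase domain gene expressed in endodermal and other epithelia, had 11.7, 10.4 and 21.2, opposite in direction to *Hk2*. The share of *Hk2* in the summed hexokinase FPKM was 68.9% in WT, 65.6% in tw18/+ and 48.5% in tw18/tw18, while that of *Hkdc1* was 21.9%, 21.4% and 38.5%. The sum of the step was 53.5, 48.4 and 55.1. For phosphofructokinase, by contrast, *Pfkl* kept the largest share, 81.2%, 79.8% and 76.5%, and the sum was 103, 113 and 76.3. *Pfkm*, the muscle form, had 13.4, 16.9 and 10.4, and *Pfkp*, the platelet form, had 6.12, 5.99 and 7.51.

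**Figure D4:**
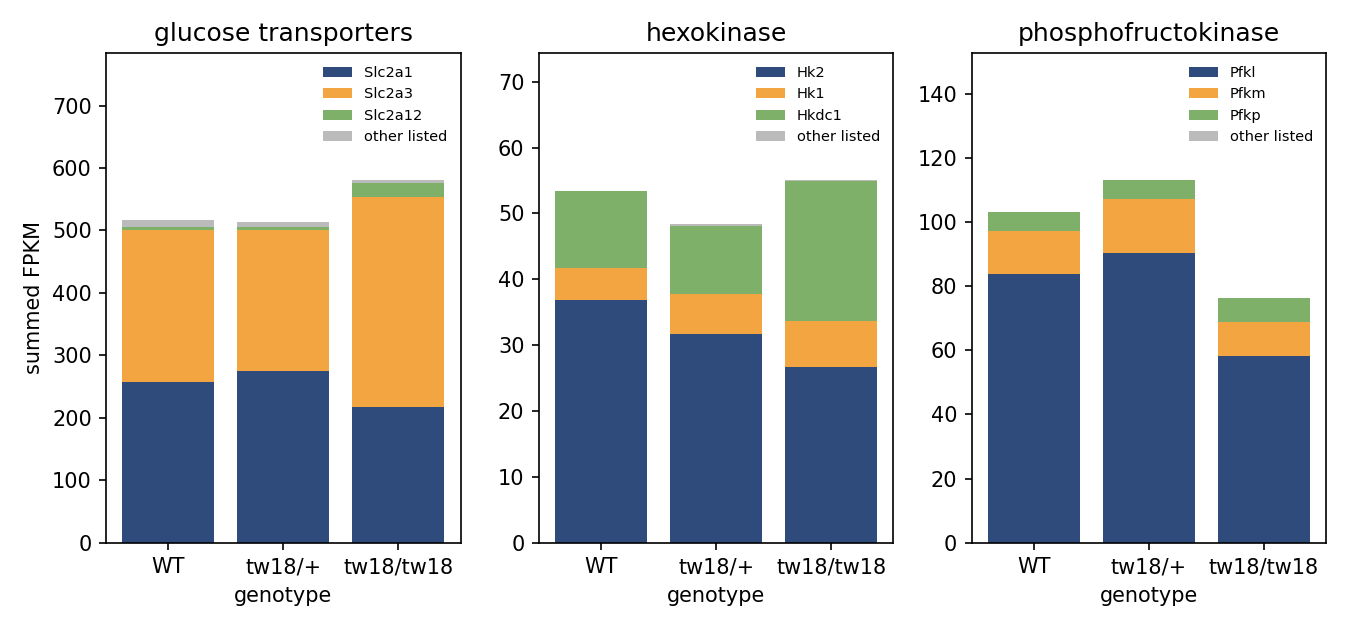
Summed FPKM of the genes of glucose transport, hexokinase and phosphofructokinase in each library, stacked by gene, with separate vertical scales that start at 0. *Slc2a3* fills 57.9% of the transporter bar and *Hkdc1* 38.5% of the hexokinase bar in tw18/tw18, while *Pfkl* fills 76.5% of the phosphofructokinase bar.

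In the later steps a single gene held nearly all of the signal, or shared it with a near copy. *Aldoc*, the brain aldolase, was far below *Aldoa* in every library, at 3.19, 4.91 and 1.01. *Ldha* made up 94.6%, 95.5% and 95.02% of lactate dehydrogenase FPKM. *Ldhb*, the subunit associated with lactate use, was lower along with it, at 95.4, 86.1 and 46.5, a log2 ratio of tw18/tw18 to WT of -1.04 as deposited and between -0.99 and -0.83 under the rescalings, while the ratio of *Ldha* to *Ldhb* was 18.4, 22.1 and 19.5. *Ldhc*, the testis form, had 4.81, 2.49 and 1.07. *Eno3*, the muscle enolase, had 12.3, 15.1 and 3.91, a log2 ratio of -1.65. *Pgam2*, the muscle mutase, went against *Pgam1* at 4.64, 3.49 and 14.3, a ratio of 1.62. Of the list of 15 other isozymes, 10 reached an FPKM of 1 in either library, with a median of -0.45. By a log2 ratio of 1 or more, 1 was higher and 4 were lower, beside 15.1% and 6.94% of all genes.

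Some of these genes share sequence with copies elsewhere in the genome, between which fragments could have been divided. *Eno1* had 70.5% of its 50-base words in *Gm5506*, a copy listed separately at an FPKM of 617, 677 and 456, close to its own values. The sum of both genes gave a log2 ratio of tw18/tw18 to WT of -0.46, beside -0.47 for *Eno1* alone. *Pgk1* shared 68.0% of its words with other genes, *Gapdh* 82.5%, *Pgam1* 41.5%, *Pkm* 34.4%, *Gpi1* 19.3%, *Ldha* 17.1%, *Aldoa* 13.9% and *Tpi1* 7.51%. *Slc2a1*, *Hk1* and *Hk2* shared none. Many of these copies are not listed in the expression table. Within it *Pgk1*, *Pgam1*, *Pkm* and *Tpi1* shared no words, *Ldha* 0.291% and *Gpi1* 0.494%. *Aldoa* shared 6.43% and *Gapdh* 72.1% with other genes of the table. How the authors' counting divided such fragments is not given in the sources used here, so the levels of genes with shared words are uncertain.

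The genes around the pathway were described from 11 lists, whose members are not replicates of each other. In tw18/tw18 against WT, 15 of 103 such genes were higher and 8 were lower by a log2 ratio of at least 1, shares near the 15.1% and 6.94% of all genes. With equal FPKM sums the split was 18 higher and 4 lower, and that of all 12917 genes moved from 1946 higher and 896 lower to 2493 and 631. Lactate leaves or enters cells through monocarboxylate transporters with the chaperones basigin and embigin. *Slc16a3*, the transporter known for lactate export, had 147, 134 and 75.4, and *Slc16a1*, which carries lactate in both directions, had 160, 148 and 267. The ratio of *Slc16a1* to *Slc16a3* was 1.09 in WT, 1.10 in tw18/+ and 3.55 in tw18/tw18, and these genes were singled out after their values were seen. The chaperones were closer to equal, *Bsg* with 320, 399 and 331 and *Emb* with 360.0, 352 and 396. Of the 4 genes of lactate transport tested, none passed a log2 ratio of 1, and the median was 0.09.

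The branch into the pentose phosphate pathway, which makes NADPH and ribose, had 8 genes with a median log2 ratio of tw18/tw18 to WT of 0.14. By a log2 ratio of at least 1, 2 were higher and 0 lower, beside 15.1% and 6.94% of all genes. *Tkt*, transketolase, which returns sugars to glycolysis, had 135, 141 and 69.7, a log2 ratio against tw18/+ of -1.01 as deposited and between -0.96 and -0.76 under the rescalings. The list of pyruvate entry and the citric acid cycle, the route that competes with lactate dehydrogenase for pyruvate, had 24 genes with a median log2 ratio of tw18/tw18 to WT of -0.13. Its summed FPKM was 1355 in WT, 1447 in tw18/+ and 1281 in tw18/tw18. The ratio of *Ldha* to *Pdha1*, a pyruvate dehydrogenase subunit, was 28.0, 31.0 and 16.1. In that list 1 gene of 24, *Mpc1* of the mitochondrial pyruvate carrier, was higher by a log2 ratio of at least 1, beside 15.1% of all genes. *Mpc1* had 2.79, 10.4 and 8.28, and its WT value rests on an estimated 37 fragments.

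The genes with the pattern most like that of *Slc2a1* were sought among 5398 genes whose FPKM was 10 or more in each of the 3 libraries. By Euclidean distance over the log2 ratios of tw18/+ and tw18/tw18 to WT they were *Usp37* (0.0038), *Eef1a1* (0.0050), *Ppp1r8* (0.0057), *Oxr1* (0.0080) and *Diap1* (0.011). Their log2 ratios of tw18/tw18 to WT lay between -0.25 and -0.24, and with 3 libraries such likeness rests on few points.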

How the data were processed

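Total RNA from E6.5 embryo tissue was sequenced in 3 libraries, grouped by genotype as labelled. The authors mapped paired-end reads to mm10 (GRCm38) and deposited FPKM values from Cuffdiff in 1 table of 23421 symbols. The submitters' processing notes name TopHat2 (version 2), Bowtie 1.0.0, Cuffdiff and Cufflinks 2.2.1. The gene annotation and the library normalization given to Cuffdiff are not given in the sources used here. Because FPKM is relative to the library, a few very abundant genes can lower all others, and *Lars2* was listed at 0 in tw18/tw18 but at 11199 in WT and 9689 in tw18/+. 

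Ratios were computed from the deposited FPKM without a pseudocount for genes that reached an FPKM of 1 in a library of the pair, with Python 3.11.15, numpy 2.4.6, pandas 2.3.3, scipy 1.17.1 and matplotlib 3.10.9. With 1 library per genotype, no test was made, and a log2 ratio of at least 1 was used as the size threshold. Fragment numbers were estimated from the spacing of low FPKM values of 7927 genes with 1 annotated transcript. Between 83.7% and 86.2% of the low values lay within 0.2 of a whole number. They gave 95% Poisson intervals. The members, the 11 lists of pathway genes and the 10 lists of marker genes (75 genes) were chosen with earlier results of these data known. The genes named are the members, *Gapdh*, *Pgam1* and *Pkm*, *Ppp2r1a*, the isozymes of a member's step that reached an FPKM of 1 anywhere, other listed genes that reached an FPKM of 10 with a log2 ratio of 1 or more in a pair, and the 5 genes most like *Slc2a1*. Some genes that meet this rule or stand in the lists are not reported here. Genes named outside this rule were chosen after their values were seen. Promoters came from RefSeq (GRCm38.p6) and positions from GENCODE M21. Alternatives were pseudocounts, filters, scalings, fold thresholds, fragments in place of FPKM, and, added after seeing the data, an FPKM minimum of 100, the scalings joined with the 1.5-times threshold or split by direction, and the sum of *Eno1* and *Gm5506*. The scripts were tested on simulated data.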

Additional observations from a re-analysis of the deposited data

How the results depend on the processing

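No paired analysis was possible because the labels give 1 library per genotype. Under the scalings, pseudocounts and sums tried, no log2 ratio of a single member changed sign in tw18/tw18 against WT. A pseudocount cannot change a sign. The scalings moved these ratios up, so they could change the sign of the lower members only. The ratios that changed sign were *Pgk1* in tw18/+ against WT (-0.02 with equal FPKM sums, -0.03 with equal sums without *Lars2*) and, in tw18/tw18 against tw18/+, *Hk2* (0.0008 with equal sums) and *Gpi1* (0.14 with equal sums, 0.11 without *Lars2*). The members' median log2 ratio of tw18/tw18 to WT, -0.50 as deposited, was -0.29 with equal FPKM sums, -0.32 with equal sums without *Lars2* and -0.45 when centred on the median gene. Against tw18/+, -0.59 as deposited, it was -0.34, -0.37 and -0.54. Lowering the threshold to 1.5 times called 4 members against WT and 5 against tw18/+, all of them lower, beside 16.0% and 15.2% of all genes. With equal sums as well, 2 were lower in each, beside 10.3% and 8.14% of all genes. Against WT 1 member was then higher, *Hk1* with a log2 ratio of 0.70, as were 4016 of 12917 genes. Against tw18/+, the count of 1 member was 0 with equal sums, with or without *Lars2*, and 0 at a log2 ratio of 2. Of the other pathway genes, 23 passed in tw18/tw18 against WT. That count was 12 at an FPKM minimum of 10, 0 at 100, 41 at 1.5 times and 5 at a log2 ratio of 2. In tw18/+ against WT, 3 of 103 passed, beside 9.72% of all genes. That count was 13 without a filter, 1 at a minimum of 10, 0 at 100, 21 at 1.5 times and 0 at a log2 ratio of 2. In tw18/tw18 against tw18/+, where 22 passed, it was 34 without a filter, 12 at a minimum of 10, 1 at 100 and 3 at a log2 ratio of 2. With equal sums the split of these genes by direction moved from 15 higher and 8 lower to 18 and 4 against WT, from 14 and 8 to 18 and 2 against tw18/+, and in tw18/+ against WT from 2 and 1 to 2 and 2. The split of all genes moved too. Against WT it went from 1946 and 896 to 2493 and 631 of 12917. Against tw18/+ it went from 1910 and 726 to 2539 and 472 of 12846. In tw18/+ against WT it went from 584 and 624 to 556 and 664 of 12426. The filters and thresholds change these counts by how many genes they admit. The share of *Hk2* in hexokinase in tw18/tw18 minus that in WT was -20.4 percentage points by FPKM and -18.0 by estimated fragments. Depth was no limit for the abundant members, while *Hk1* rests on 261 fragments in WT.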

Other observations

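HIF, described above, induces many of the glycolytic genes and also genes outside glycolysis. Of 15 such targets outside glycolysis, 14 were tested against WT, and 5 were higher and 0 lower by a log2 ratio of at least 1, beside 15.1% and 6.94% of all genes, with a median of 0.17. *Vegfa*, the growth factor of blood vessels, had an FPKM of 11.8 in WT, 11.0 in tw18/+ and 28.2 in tw18/tw18. *Ndrg1*, a stress-responsive gene, had 5.14, 8.78 and 17.2. *P4ha2*, a collagen prolyl hydroxylase, had 7.72, 8.49 and 18.3, and *Ddit4*, an inhibitor of mTORC1 signalling, had 5.33, 4.09 and 11.1. By any amount, 9 of the 14 were higher and 5 were lower. The lower genes included the most abundant of the list, the mitophagy receptor *Bnip3*, at 78.1, 72.0 and 61.6. Its relative *Bnip3l* was also lower, at 45.9, 46.7 and 38.2, and both were named after their values were seen. The 13 transcription factors and oxygen sensors had 0 higher and 2 lower by a log2 ratio of at least 1, with a median of -0.18. The latter were *Egln3*, an oxygen-sensing hydroxylase, at 10.9, 6.72 and 5.26, and *Mycn*, a MYC family factor, at 56.3, 58.0 and 28.0. Both are near the threshold: with equal FPKM sums their log2 ratios were -0.84 and -0.80 and neither passed. *Epas1*, which encodes HIF-2 alpha, had 59.6, 33.6 and 95.1. Stroma and endothelium markers were also higher in tw18/tw18, and their part in these values was not tested.

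Of the bifunctional and regulatory enzymes, 9 were tested against WT. By a log2 ratio of at least 1, 3 were higher and 0 lower, beside 15.1% and 6.94% of all genes. By any amount 4 were higher and 5 lower, and the median was -0.13. *Txnip*, which limits glucose uptake, had 14.95, 12.2 and 42.5. *Pdk1*, which inhibits pyruvate dehydrogenase, had 12.9, 13.6 and 6.64, a log2 ratio against tw18/+ of -1.04 that was -0.79 with equal sums. In gluconeogenesis 3 genes were tested, 1 higher and 1 lower by a log2 ratio of at least 1, beside the same shares of all genes. With equal FPKM sums it was 1 higher and 0 lower. The median as deposited was 0.62, and *Pcx*, pyruvate carboxylase, had 2.55, 6.08 and 10.9. Of 8 glycogen genes tested, 1 was higher by a log2 ratio of 1 or more, beside 15.1% of all genes. All 8 were higher by any amount, beside 49.6% of all genes, with a median of 0.47. They included the synthase *Gys1* at 7.40, 9.68 and 12.7 and the phosphorylase *Pygl* at 5.80, 4.28 and 8.63, both named after their values were seen.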
